A study of Arabidopsis thaliana with 8 samples.

Results

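Transcript levels in leaves treated with clothianidin were compared with those in untreated leaves, on the 4 arrays of these groups among the 8 arrays of the study. All 22746 probe sets that were not array controls, of 22810 on each array, were compared, and none was chosen for its level. The plants were Arabidopsis thaliana of the Columbia-0 strain, wild type, 4 weeks old at the time of treatment. Clothianidin was given at 4 mM and whole, fully expanded leaves were cut 4 days later, together with those of plants that had received nothing. The other 4 arrays came from plants given 4 mM imidacloprid or 4 mM salicylic acid under the same scheme, 2 arrays each. Every array holds total RNA from 100 mg of leaf tissue, and each group has 1 sample from each of 2 independent experiments. The untreated plants are the only control, and a group given the carrier solution alone was not analysed here. Values are log2 expression per probe set, so that a difference of 1 is a 2-fold difference.

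Clothianidin is a neonicotinoid, a class of insecticides that act on the nicotinic acetylcholine receptors of insects and move through a plant after uptake by roots or leaves. It carries a chlorothiazole ring and an open-chain nitroguanidine group, whereas imidacloprid carries a chloropyridine ring and holds the nitroimine in a closed imidazolidine ring. Plants meet foreign compounds and microbial attack with partly shared gene classes. Calcium sensors and receptor kinases act early, WRKY and zinc-finger factors change transcription, proteases and chitinases are secreted to the apoplast, and cytochrome P450 enzymes and glycosyltransferases modify small molecules. Salicylic acid is the hormone that controls much of the defence against biotrophic pathogens.

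The 4 arrays had mean log2 values within the range of 5.23 to 5.27 that held for all 8. Across probe sets, which are not independent of each other, the clothianidin arrays correlated with each other at 0.963 and the untreated arrays at 0.955. Clothianidin array 2 was closer to untreated array 2, at 0.978, than to clothianidin array 1. The actin 3′ minus 5′ difference, which grows as RNA is degraded, was 1.04 and 1.75 with clothianidin and 0.848 and 2.17 in untreated leaves, so it was higher on array 2 of both groups. Its part in the results was not tested, and values are therefore given for each array. RCA, which encodes Rubisco activase of leaf mesophyll, had 14.36 and 14.03 with clothianidin and 14.29 and 13.96 in untreated leaves. PRK, for phosphoribulokinase of the Calvin cycle, had 13.11 and 12.61 with clothianidin and 13.23 and 12.79 in untreated leaves, so both measured members of an 8-gene mesophyll list were bright and overlapped between the groups. PYK10, a beta-glucosidase of roots, had 6.40 and 4.61 with clothianidin and 5.92 and 4.59 in untreated leaves, and FMA, a guard cell factor, had 4.59 and 5.09 with clothianidin and 5.41 and 4.94 in untreated leaves. In such bulk samples, fewer cells of a type and less RNA per cell cannot be told apart.

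No probe set passed the test of clothianidin against untreated leaves. In limma's test 0 of 22746 had an adjusted p under 0.05 (0.0%), and the smallest adjusted p was 0.44. At an unadjusted p under 0.05 there were 252 probe sets on the higher side (1.11%) and 347 on the lower side (1.53%). Together these are 599 (2.63%), a smaller share than the threshold of 0.05 itself. The median difference was -0.02 and the median SE of a probe set's difference was 0.3. For a single probe set, 2 arrays against 2 cannot give a two-sided p below 0.333 in an exact permutation test. What follows therefore describes which genes were higher or lower on both clothianidin arrays than on both untreated arrays, and by how much. Shares over all probe sets or all loci are given for the kinds of count used.

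The groups did not overlap at 2284 probe sets that were higher with clothianidin (10.0%) and 3384 that were lower (14.9%). For exchangeable arrays with no difference, a probe set would separate in either direction with a probability of 0.333. The 2 shares together are below that, so these counts alone show no excess. Large separations were more numerous on the higher side when all 4 arrays were used. The gap, which is the distance from the lowest value of the higher group to the highest value of the lower group, was at least 1 for 305 probe sets higher with clothianidin (1.34%) and for 63 lower (0.277%). This lean depended on the arrays used. Without untreated array 2 the counts were 1125 higher and 1067 lower, and the arrays of number 1 alone gave 1651 and 1667. Without clothianidin array 1 or 2 they were 758 and 373 or 763 and 330, without untreated array 1 400 and 278, and number 2 alone gave 1001 and 725. Of the 305, 119 had an unadjusted p under 0.05 in limma's test, against 1.11% of all probe sets on the higher side. The 305 were chosen by their gap on the same arrays, so that count is no further evidence. Their smallest adjusted p in limma's test was 0.812. Just inside the limit on the higher side was AT3G22060 with a gap of 1.02, and just outside it was LHCB4.3, whose gap was 1.0 after rounding. On the lower side AT5G43870 lay inside with 1.03 and AT1G20070 outside with 0.976.

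The 305 higher probe sets had a median level of 7.74 and 6.71 on the clothianidin arrays, against 3.19 and 4.46 on the untreated arrays. Their differences ran from 1.13 to 6.94 with a median of 2.89, and their lower group lay below 2.49, the 25th percentile of an array on average, at 33. Clothianidin array 1 exceeded array 2 at 231 of them and untreated array 2 exceeded array 1 at 252, so that same-numbered arrays lay closer on number 2, with median differences of 3.73 on number 1 and 1.87 on number 2. The 63 lower probe sets had median levels of 4.2 and 4.14 with clothianidin and 6.05 and 5.73 in untreated leaves. Their median difference was -1.69, in a range of -3.57 to -1.2. Of the 305, 135 had a single-locus name and 160 had no gene in the probe table, and of the 63, 37 had a single-locus name.

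The same-numbered arrays give 2 differences that share no array. The labels do not say that a number marks an experiment, so a difference on a number describes those 2 arrays only. The higher side recurred between these differences more than the lower side, also with the numbers crossed. Over all 22746 probe sets the differences correlated at r = 0.305 (Spearman's rho 0.148), which describes these arrays since probe sets share RNA samples. Among the 100 probe sets highest with clothianidin on number 1, 90 were also higher on number 2 and 73 by at least 1, with a median of 1.88, where 39.1% of all probe sets lay above 0 on number 2. Among the 100 highest on number 2, 85 were higher on number 1 and 74 by at least 1, with a median of 4.27, where 55.9% of all lay above 0. Over all 22746 probe sets, 1001 were higher by at least 1 on number 2 and 1651 on number 1. Of the 100 lowest on number 1, 77 were lower on number 2, and their median there was -0.15, where 60.9% of all probe sets lay below 0. By at least 1, 20 of these 100 were lower there, where 725 of all 22746 were. Of the 100 lowest on number 2, 47 were lower on number 1, with a median of 0.01, where 44.1% of all lay below 0. By at least 1, 24 of these 100 were lower there, where 1667 of all 22746 were. A difference of at least 1 in both was found for 447 probe sets on the higher side (1.97%), which are 27.1% of those on number 1 and 44.7% of those on number 2. On the lower side there were 198 (0.87%), or 11.9% and 27.3%. With the numbers crossed, r was -0.029, and 84 and 72 of the 100 highest kept the higher side in the other difference, and 25 and 14 of the 100 lowest kept the lower side. Over all probe sets the first crossed difference was above 0 at 34% and below 0 at 66.0%, and the second at 37.8% and 62.2%.

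**Figure D1:**
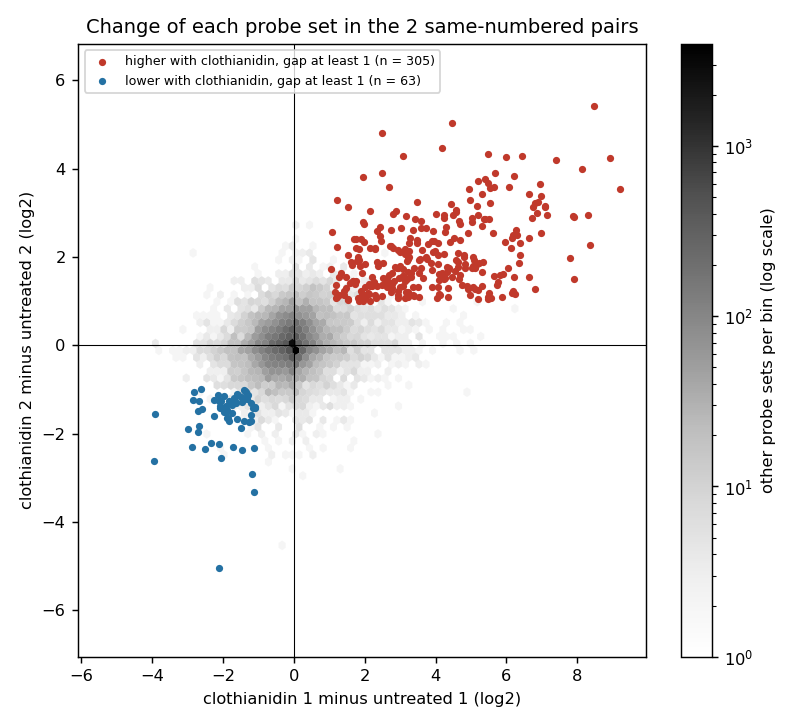
Difference of every probe set between clothianidin and untreated leaves (log2), on the arrays numbered 1 (horizontal) and 2 (vertical). Grey shading counts the remaining probe sets per bin on a log scale. The 305 red points, higher with a gap of at least 1, reach much further from 0 than the 63 blue points, lower with such a gap.

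Among single-locus probe sets, the 12 widest gaps on the higher side had differences between 3.36 and 6.58. CHI (AT2G43570), a chitinase gene whose product degrades the chitin of fungal walls, had 11.35 and 9.45 with clothianidin and 2.44 and 5.2 in untreated leaves. Its difference was 6.58 (SE 1.51; limma adjusted p = 0.996), and both clothianidin arrays stood at least 4.24 above both untreated ones. SBT3.3, a subtilisin-like protease of the extracellular space linked to immune priming, had 9.03 and 7.03 with clothianidin against 3.37 and 3.45 in untreated leaves, where its replicates were nearly equal. STZ, a C2H2 zinc-finger repressor induced by many stresses, had 11.04 and 10.70 with clothianidin against 3.95 and 7.54 in untreated leaves. Its clothianidin arrays were close and its untreated arrays far apart.

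The other loci of the 12 carry no symbol in the annotation and are given by locus only. AT4G00700 had the widest gap, with 6.35 and 6.94 with clothianidin and 1.89 and 1.90 in untreated leaves, but its 2 salicylic acid arrays, at 2.05 and 10.95, widened the common SE to 2.90. AT1G65500 had 7.35 and 6.78 with clothianidin and 3.18 and 2.31 in untreated leaves. It had the smallest limma p on the higher side (difference 4.32, SE 0.48, adjusted p = 0.812) and was nearly the same on both numbers, at 4.17 and 4.46. AT5G39670 had 7.94 and 7.84 with clothianidin and 2.46 and 3.52 in untreated leaves, and AT1G05340 had 9.37 and 8.75 with clothianidin and 2.92 and 4.47 in untreated leaves. The remaining 5 were AT3G47480, AT3G18250, AT1G26390, AT5G52390 and AT2G18690, with differences of 4.59, 5.04, 5.17, 3.36 and 5.01. Of the 12, 9 had an unadjusted p under 0.05 in limma's test, against 1.11% of all probe sets on the higher side. They were chosen by their gap on the same arrays, so this count is no further evidence. Clothianidin array 1 was above array 2 at 11 of the 12, and untreated array 2 was above array 1 at 11.

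The 12 widest gaps on the lower side were smaller, with differences between -3.57 and -1.47. TBL36 belongs to the trichome birefringence-like family, which acetylates cell wall polysaccharides. It had 5.04 and 4.56 with clothianidin and 7.14 and 6.80 in untreated leaves (difference -2.17, SE 0.20; limma adjusted p = 0.605). SIM, for the SIAMESE inhibitor of cyclin-dependent kinases that promotes endoreduplication in trichomes, had 3.99 and 3.95 with clothianidin and 5.40 and 5.66 in untreated leaves, and its groups lay 1.41 apart. MSRB6, a methionine sulfoxide reductase that repairs oxidised proteins, had 9.22 and 5.48 with clothianidin and 11.32 and 10.53 in untreated leaves. Its difference of -3.57 rested mainly on number 2, where it was -5.05 against -2.10 on number 1. AT1G12010 had 2.52 and 2.49 with clothianidin and 5.39 and 4.78 in untreated leaves, and its clothianidin values are close to the 25th percentile of the arrays. AT1G12845 and AT3G60290 had differences of -3.28 and -2.74, and the other 6, AT2G40435, AT5G05890, AT5G37790, AT5G20030, AT2G02780 and AT2G26730, between -2.25 and -1.47.

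**Figure D2:**
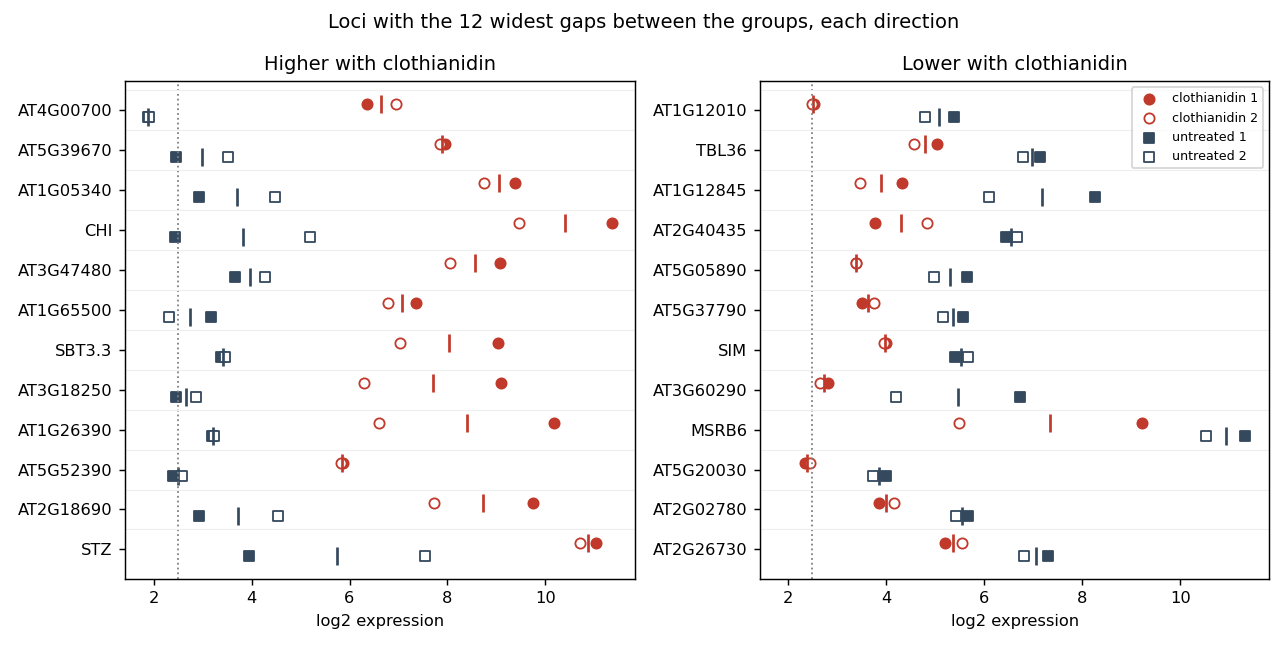
Log2 expression of the 24 loci with the widest gaps, higher (left) and lower (right) with clothianidin. Red circles are clothianidin arrays and dark squares untreated arrays, filled for number 1 and open for number 2, short bars are group means, and the dotted line is the mean 25th percentile of the arrays, 2.49. The groups of every locus are separate, and the untreated arrays of CHI and STZ are far apart.

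The smallest p-values went to probe sets with close replicates, at differences of different size. On the lower side AT3G08630 had 3.00 and 2.80 with clothianidin and 4.1 and 4.2 in untreated leaves (difference -1.25, SE 0.08; limma adjusted p = 0.44). AT1G06420 and AT1G65920 followed with -0.63 and -0.70 at the same adjusted p. On the higher side, after AT1G65500, AT4G10270 had 3.25 and 3.18 with clothianidin and 2.64 and 2.63 in untreated leaves, and AT1G45110 had 4.80 and 4.64 with clothianidin and 4.05 and 3.89 in untreated leaves. All of these except AT1G65500 lay below the mean of the arrays on all 4 of them, and some were near background. AT1G65920 had 2.32 and 2.41 with clothianidin, under the mean 25th percentile of 2.49, and 3.05 and 3.09 in untreated leaves. AT1G06420 had 2.96 and 2.89 with clothianidin and 3.56 and 3.55 in untreated leaves.

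Of the probe sets with a gap of at least 1, 27 higher and 6 lower ones had a gene symbol. This set is complete and was formed after the values were seen, and its members are described here by what they encode. WRKY factors, which bind W-box DNA and act in defence and leaf senescence, were 3 of the 27. WRKY53, an activator of senescence, had 9.28 and 10.10 with clothianidin and 3.75 and 6.89 in untreated leaves, WRKY6 had 6.49 and 5.37 with clothianidin and 2.58 and 3.66 in untreated leaves, and WRKY47 had 4.76 and 5.46 with clothianidin and 2.48 and 3.26 in untreated leaves. Their differences were 4.37 (SE 2.27), 2.80 (SE 0.80) and 2.24 (SE 1.31). WRKY22, a factor downstream of a mitogen-activated kinase cascade in immune signalling, differed by 2.09 with a gap of 0.14. Of 67 WRKY loci in the annotation 6 were measured, of which 4 were higher without overlap and 1 lower, with a median difference of 2.16. The others had no single-locus probe set, so these counts do not describe the whole family. Over all 13286 loci, 9.2% were higher without overlap and 14.8% lower, and 1.01% were higher and 0.278% lower with a gap of at least 1.

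CML38, CML41 and CML37 encode calmodulin-like calcium sensors. CML38 had 9.60 and 10.36 with clothianidin and 5.02 and 8.44 in untreated leaves, CML41 had 5.39 and 6.30 with clothianidin and 2.21 and 3.38 in untreated leaves, and CML37 had 6.66 and 4.34 with clothianidin and 2.57 and 2.72 in untreated leaves. All 3 had gaps over 1 with differences of 3.25, 3.05 and 2.85, whereas CML30 was lower by 0.90 without overlap, and the median over 7 measured CML loci was 0.77. This set of CML loci was formed after the values were seen. The glutamate receptor-like channels ATGLR1.2 and GLR2.7, from the set of 27, differed by 2.31 and 1.60.

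GH3.3, which conjugates auxin to amino acids, had 9.61 and 7.82 with clothianidin and 2.90 and 4.94 in untreated leaves (difference 4.80, SE 1.21; limma adjusted p = 0.996). The other 4 measured auxin response loci had differences between -1.21 and 0.61. JRG21, a jasmonate-regulated oxygenase that hydroxylates jasmonic acid, had 10.87 and 5.91 with clothianidin and 2.97 and 2.99 in untreated leaves, so its clothianidin arrays lay far apart while its untreated arrays were nearly equal. PDF1.2, the defensin that reports jasmonate and ethylene signalling, had 3.48 and 2.79 with clothianidin and 3.36 and 3.04 in untreated leaves, and its groups overlapped. ARL, which promotes organ growth by cell expansion, had 8.24 and 7.88 with clothianidin and 4.99 and 5.75 in untreated leaves, with a difference of 2.69 (SE 0.44).

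Of 39 listed salicylic acid genes only 5 had a single-locus probe set, so the list as a whole was not assessed. Of these 5, 1 was higher without overlap (UGT76B1, a glycosyltransferase of salicylic acid and related immune signals) and 0 lower. Over all loci 9.2% were higher and 14.8% lower. UGT76B1 had 3.72 and 2.65 with clothianidin and 2.13 and 2.15 in untreated leaves. GRX480, a glutaredoxin that links salicylic acid and jasmonate signalling, had 8.66 and 8.10 with clothianidin and 3.39 and 8.47 in untreated leaves. Its difference of 2.45 thus rested on untreated array 1, and the groups overlapped. BSMT1, which methylates salicylic and benzoic acid, differed by 1.94 and SAG101, a partner of the EDS1 immune regulator, by 0.76, both with overlap. The list median was 2.16 on number 1 and -0.04 on number 2.

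The pattern-triggered immunity list, of genes that act after recognition of microbial molecules, had 6 measured members of 22 listed. All 6 had positive differences, where 4430 of all 13286 loci did. Of the 6, 3 were higher without overlap, against 9.2% of all loci. BIK1, the cytoplasmic kinase that relays signals from several immune receptors, had 8.0 and 7.46 with clothianidin and 6.36 and 6.64 in untreated leaves (difference 1.22, SE 0.45; limma adjusted p = 0.996). PUB23, a ubiquitin ligase that dampens this response, had 7.54 and 7.23 with clothianidin and 3.37 and 6.44 in untreated leaves, and the related PUB22 and PUB24 overlapped between groups, at 0.34 and 1.24. The median of the 6 was 2.26 on number 1 and 0.04 on number 2, so these differences too lay mainly in the arrays of number 1.

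**Figure D3:**
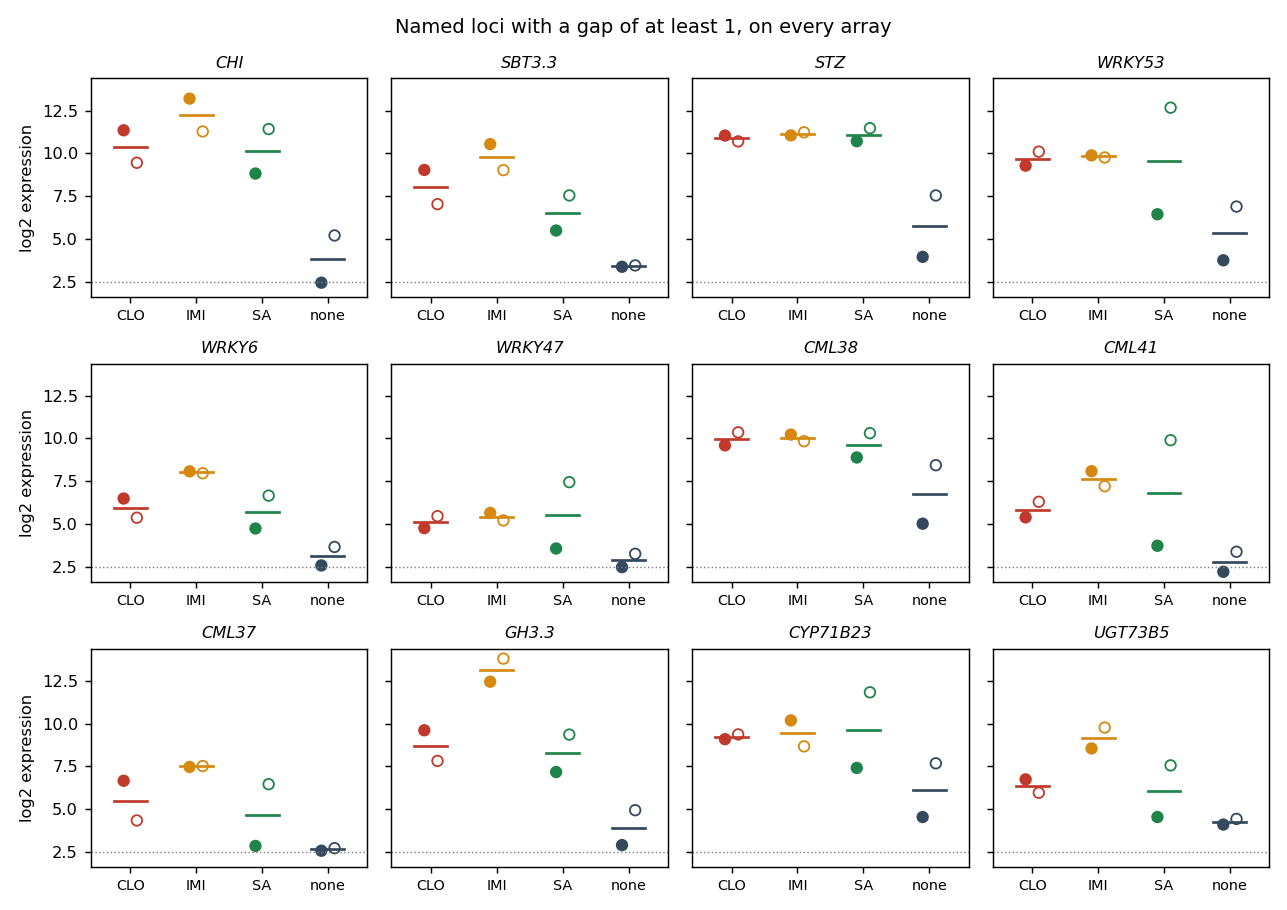
Log2 expression of 12 named loci with gaps of at least 1, on all 8 arrays. CLO is clothianidin, IMI imidacloprid, SA salicylic acid and none untreated, with number 1 filled and number 2 open, lines at group means and the mean 25th percentile of the arrays, 2.49, dotted. Both clothianidin arrays are above both untreated arrays in each panel, and the salicylic acid arrays are far apart for WRKY53 and CML41.

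Cytochrome P450 loci had 4 of 22 measured members (of 225 in the family) higher without overlap and 2 lower. UDP-glycosyltransferase loci had 6 of 47 measured members higher and 5 lower, and the medians were -0.01 and -0.02. As shares these are 18% and 9.09% for the P450 loci and 12.8% and 10.6% for the glycosyltransferases, against 9.2% and 14.8% of all loci, so the glycosyltransferase shares are near those of all loci. CYP71B23 had 9.09 and 9.37 with clothianidin and 4.54 and 7.68 in untreated leaves, and CYP71B36 had 6.01 and 5.59 with clothianidin and 4.19 and 4.53 in untreated leaves. UGT73B5 had 6.74 and 5.96 with clothianidin and 4.1 and 4.43 in untreated leaves. UGT87A2 and UGT73B1 differed by 1.83 and 1.56, each with both clothianidin arrays over 1 above both untreated arrays. In the glutathione S-transferase family, whose enzymes conjugate glutathione to electrophiles, 1 of 14 measured members was higher without overlap and 2 were lower (7.14% and 14.3%). GSTL3, one of the brightest, had 11.70 and 12.11 with clothianidin and 11.67 and 11.56 in untreated leaves.

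Stress and protein-folding genes were mixed. ATHSP22.0, a small heat shock protein of the endoplasmic reticulum, had 5.88 and 4.50 with clothianidin and 2.63 and 2.18 in untreated leaves (difference 2.79, SE 0.51; limma adjusted p = 0.996). Hop3, a co-chaperone that joins the Hsp70 and Hsp90 machines, had 8.09 and 6.53 with clothianidin and 5.27 and 5.08 in untreated leaves. NDB2, an alternative NADH dehydrogenase of the mitochondrial membrane, had 7.35 and 5.81 with clothianidin and 5.18 and 4.27 in untreated leaves. Of 18 listed endoplasmic reticulum stress genes 4 were measured and none separated, where 9.2% of all loci were higher without overlap and 14.8% lower. With 4 loci this is no result about the list. All 4 differences were positive, with a median of 0.36 that was 0.83 on number 1 and -0.15 on number 2. Among them BZIP60, a factor of the unfolded protein response, had 9.53 and 8.44 with clothianidin and 7.80 and 8.58 in untreated leaves. SRC2, a C2-domain protein gene, was bright in both groups, at 12.80 and 12.17 with clothianidin and 9.73 and 10.83 in untreated leaves.

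Further higher loci with a symbol were cwINV6 of the cell wall invertase family, with 4.78 and 6.72 with clothianidin and 2.29 and 2.82 in untreated leaves, LUP5 for a lupeol synthase type of triterpene cyclase, at a difference of 2.32, and TET8, a tetraspanin of extracellular vesicles, at 2.08 with a gap under 1. ZCF37, SAL2 and SEC1B differed by 3.42, 2.19 and 2.03. Of 20 listed flavonoid genes 3 were measured. DFR, the dihydroflavonol reductase of anthocyanin synthesis, and UF3GT were higher without overlap, by 1.41 and 1.15, with gaps of 0.14 and 0.09. Over all loci 9.2% were higher without overlap and 14.8% lower, and 3 loci are too few to read against these shares. The list median was 0.15 on number 1 and 2.09 on number 2, the reverse of the immunity lists.

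Growth and cell wall families are read against all loci, of which 14.8% were lower without overlap and 9.2% higher. None of 15 GH9 endoglucanase loci, which encode cellulase-type enzymes, had a positive difference, and 5 were lower without overlap (33.3%). Over all 13286 loci, 4430 had a positive difference. In 10 of the 15, both group means were under the 25th percentile. GH9B8 had 2.42 and 2.37 with clothianidin and 3.63 and 3.68 in untreated leaves (difference -1.26, SE 0.12; limma adjusted p = 0.605), so it was near background with clothianidin. Of 22 TBL loci 5 were lower without overlap (22.7%) and 0 higher. The TBL median was -0.21, and in 7 of the 22 both group means were under the 25th percentile. Of 14 expansin loci, whose products loosen cell walls, 1 was lower and 1 higher, and of 9 xyloglucan endotransglucosylase loci 0 separated either way. Of 10 RALF loci, which encode small peptides that restrain cell expansion, 3 were lower (30.0%) and 0 higher, with a median of -0.04. RALFL34 had 8.44 and 8.20 with clothianidin and 10.36 and 9.58 in untreated leaves, and RALFL32 had 6.03 and 6.25 with clothianidin and 6.95 and 7.35 in untreated leaves. CLE26, a secreted signalling peptide gene, had 4.57 and 4.52 with clothianidin and 5.90 and 5.74 in untreated leaves, with close replicates in both groups. The calmodulin-binding IQD family had 3 of 15 members lower (20.0%) and 0 higher, with a median of -0.57 that was -0.73 on number 1 and -0.07 on number 2.

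Among transport and hydrolase genes, 4 of 14 SWEET sugar transporters were lower without overlap (28.6%) and 1 higher, where all loci leaned lower too, at 14.8% against 9.2% higher. The SWEET median was -0.01, and in 7 of the 14 both group means were under the 25th percentile. SWEET16, a transporter of the vacuole membrane, had 5.19 and 2.62 with clothianidin and 6.04 and 6.63 in untreated leaves, with most of the difference on number 2. Of 20 beta-glucosidase loci 5 were lower (25%) and 0 higher, led by BGLU33, which had 8.05 and 7.25 with clothianidin and 9.32 and 8.81 in untreated leaves. The beta-glucosidase median was -0.05, and 7 of the 20 had both group means under that percentile. The serine carboxypeptidase-like family had 8 of 29 lower (27.6%) and 2 higher without overlap. Across the 29 the median was -0.02, and 13 had both group means under the 25th percentile. The member with the widest gap, scpl48, was higher, at 9.03 and 8.99 with clothianidin and 8.47 and 7.38 in untreated leaves. Of 33 listed abscisic acid, cold and drought genes 4 were measured, and all but COR15B overlapped. COR15B was lower by 2.24 with a gap of 0.31. The related COR15A, which protects chloroplast membranes in the cold, had 9.72 and 13.57 with clothianidin and 12.15 and 13.78 in untreated leaves.

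**Figure D4:**
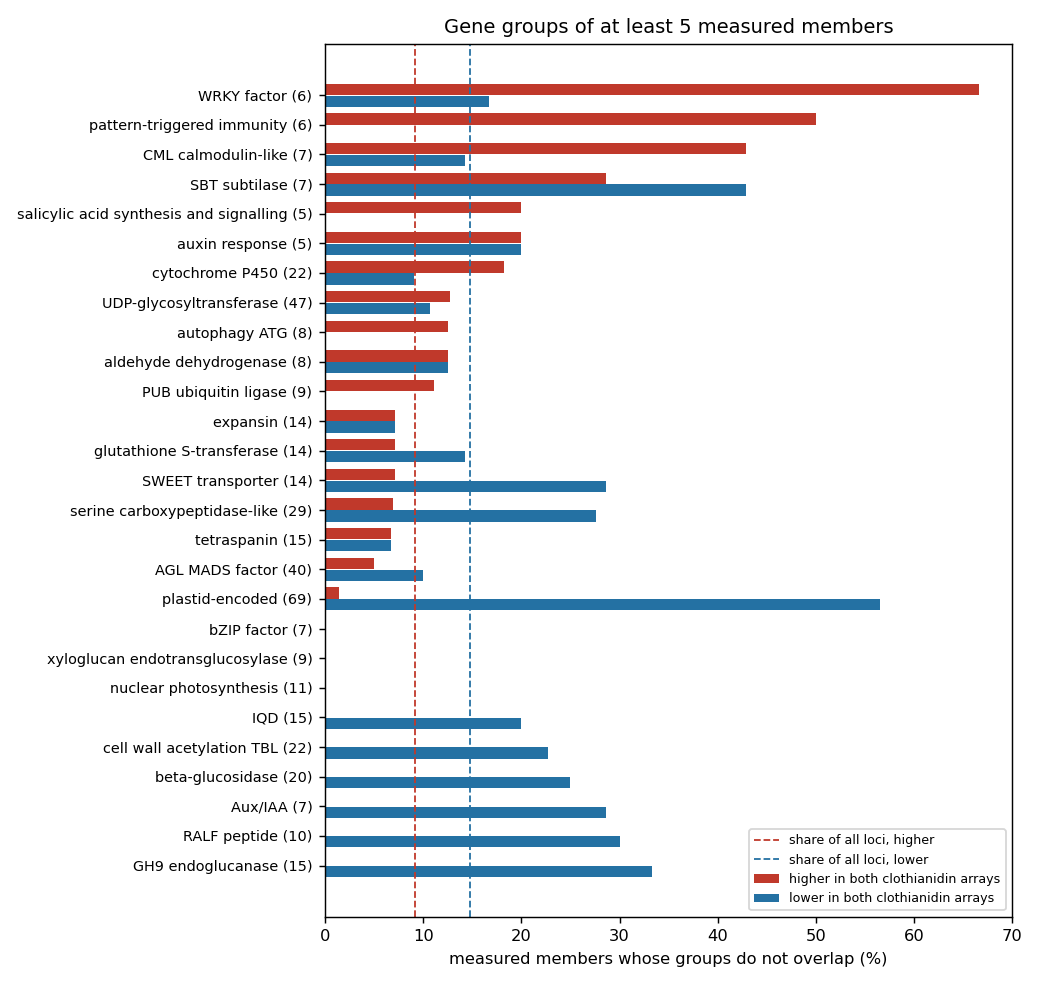
Share of measured members whose groups did not overlap (%), for gene groups of at least 5 measured loci, with the number measured in brackets. Red bars are members higher and blue bars members lower on both clothianidin arrays, and dashed lines are the shares over all 13286 loci, 9.2% and 14.8%. WRKY factors have the highest red bar, with 6 of 67 loci of the family measured. Plastid-encoded genes have the highest blue bar at 56.5%.

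Plastid-encoded genes were the largest group on one side. These genes encode core subunits of the photosystems, the cytochrome b6f complex, ATP synthase, the NADH dehydrogenase-like complex and the plastid ribosome and RNA polymerase. Of 69 measured, 39 were lower without overlap (56.5%, against 14.8% of all loci) and 1 higher, and none had a gap of 1. Negative differences were found at 60 of the 69, where 4430 of all 13286 loci had positive ones. The differences were small, with a median of -0.30 that was -0.30 on number 1 and -0.21 on number 2. There 61 and 58 of the 69 were negative, where 44.1% and 60.9% of all probe sets lay below 0. The median level was 11.95 and 11.93 with clothianidin and 12.26 and 12.2 in untreated leaves, and these array medians did not overlap. With imidacloprid it was 11.11 and 11.3 and with salicylic acid 12.11 and 11.5, so a lower level was not particular to clothianidin. Plastid genes are not independent replicates of each other.

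The widest separations among plastid genes belonged to petL, petG, ndhF and psaJ. The cytochrome b6f subunit gene petL had 10.81 and 10.36 with clothianidin and 11.86 and 11.67 in untreated leaves, and petG of the same complex had 9.18 and 9.14 with clothianidin and 9.97 and 9.9 in untreated leaves. For psaJ of photosystem I the values were 12.03 and 11.85 with clothianidin and 12.66 and 12.68 in untreated leaves (difference -0.73, SE 0.11; limma adjusted p = 0.996). For ndhF of the NADH dehydrogenase-like complex they were 4.83 and 5.33 with clothianidin and 5.97 and 6.17 in untreated leaves. In contrast psbA, for the D1 protein of photosystem II, had 14.11 and 14.30 with clothianidin and 14.01 and 14.17 in untreated leaves, and petB differed by 0.23. Plastid transcripts on these arrays were read from total RNA, and how much labelling or RNA quality contributed was not tested. The nuclear photosynthesis list had 11 measured members of 55 listed, of which none separated, where 14.8% of all loci were lower without overlap and 9.2% higher. Only 1 of the 11 had a positive difference, where 4430 of all 13286 loci did. Their median was -0.28, with -0.26 on number 1 and -0.18 on number 2, so small negative differences were not particular to plastid-encoded genes.

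**Figure D5:**
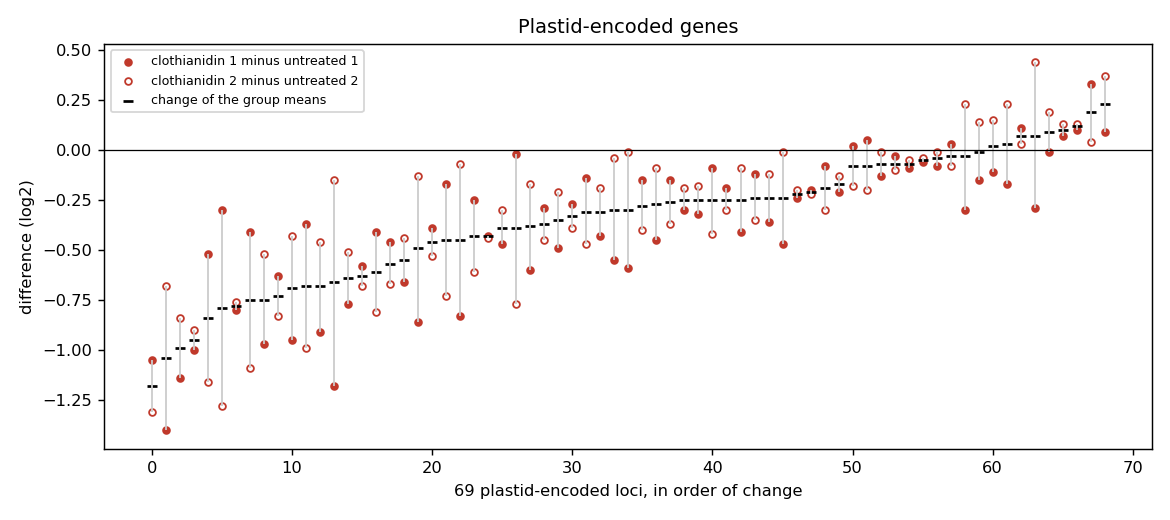
Differences between clothianidin and untreated leaves (log2) of the 69 plastid-encoded loci, in order of the group difference (short bars). Filled circles are arrays numbered 1 and open circles arrays numbered 2, joined by grey lines. 60 of 69 bars lie below 0, and the lowest is petL at -1.18. Over all 13286 loci, 4430 differences were positive.

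Several higher loci were neighbours on a chromosome. Of the 134 loci higher with a gap of at least 1, 16 lay in 7 runs whose members were within 5 annotated genes of each other. How many such runs 134 loci taken from all measured ones would form was not tested, so no excess is claimed. On chromosome 4, AT4G27652, AT4G27654 and AT4G27657, which are adjacent, differed by 3.90, 3.38 and 4.07. AT4G27652 had 8.33 and 7.83 with clothianidin and 3.31 and 5.05 in untreated leaves. On chromosome 1, AT1G26380, AT1G26390 and AT1G26420, 3 of 5 measured loci in a row, differed by 2.82, 5.17 and 3.73. Between them, AT1G26410 differed by 1.36 and AT1G26400 by -0.02. AT1G26420 had 6.79 and 5.74 with clothianidin and 2.29 and 2.79 in untreated leaves. The other runs were pairs, among them AT5G52750 and AT5G52760, whose untreated arrays were far apart, at 3.96 and 8.71 and at 2.70 and 7.46, and AT1G65490 and AT1G65500. Similar neighbouring copies can share hybridisation, so values within a run may not be separate measurements.

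Compared with the other treatments, the 305 higher probe sets had a higher mean with imidacloprid than with clothianidin at 247, and with salicylic acid than with clothianidin at 123. The 63 lower probe sets had a lower mean with imidacloprid than with clothianidin at 54, and with salicylic acid than with clothianidin at 27. The treatments share the untreated arrays, so only levels are given. The median level of the 305 was 7.74 and 6.71 with clothianidin. It was 8.96 and 8.17 for imidacloprid and 5.75 and 8.49 for salicylic acid arrays, against 3.19 and 4.46 in untreated leaves. None of the 305 passed limma's direct test of clothianidin minus imidacloprid or minus salicylic acid, where the smallest adjusted p values were 0.16 and 1.0. CHI had 11.35 and 9.45 with clothianidin, where the imidacloprid arrays had 13.20 and 11.28 and the salicylic acid arrays 8.82 and 11.42. GH3.3 was lower with clothianidin, at 9.61 and 7.82, than with imidacloprid, at 12.45 and 13.80 (difference -4.41; limma adjusted p = 0.276). UGT76B1 had 3.72 and 2.65 with clothianidin and 9.22 and 10.93 with imidacloprid, a difference of -6.89 that did not pass either (limma adjusted p = 0.154). STZ lay between 10.70 and 11.47 on all 6 treated arrays.

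Clothianidin and imidacloprid, at the same dose and time, differed in limma's test at 22 of 22746 probe sets (0.0967%), 21 of them lower with clothianidin and 1 higher. At these 22 clothianidin stayed within 0.51 of untreated leaves, and the median size of that difference was 0.06. BGLU45 and BGLU46, beta-glucosidases that act on lignin precursor glucosides, had 3.3 and 2.91 and 4.07 and 3.68 with clothianidin, against 8.66 and 7.71 and 7.96 and 7.62 with imidacloprid. Their levels in untreated leaves were 2.84 and 3.01 and 3.96 and 4.00. BGLU45 was thus lower with clothianidin than with imidacloprid by 5.08 (limma adjusted p = 0.0494) and BGLU46 by 3.91 (limma adjusted p = 0.0342). AT2G35730 had 2.30 and 2.21 with clothianidin, 6.32 and 6.27 on imidacloprid arrays, and 2.24 and 2.27 in untreated leaves (clothianidin minus imidacloprid -4.04, limma adjusted p = 0.00039). UGT76E1 had 2.64 and 2.54 with clothianidin, 5.16 and 5.43 on imidacloprid arrays, and 2.64 and 2.63 in untreated leaves. These 4 loci were picked from the 12 with a single-locus name after their values were seen. The count rests on the fit over all arrays: it was 0 with only the 4 clothianidin and imidacloprid arrays and 2 with a replicate block. Clothianidin minus salicylic acid gave 0 calls in limma's test, with 277 probe sets at an unadjusted p under 0.05, and leaving out salicylic acid array 1 gave 19.

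Few probe sets with clothianidin lay far outside the range of all other arrays. Both clothianidin arrays were above all other 6 arrays at 154 probe sets (0.677%) and below all of them at 253 (1.11%). Only 6 of the 154 were above by at least 0.5, 4 of them with a locus name, which were picked after their values were seen. AT5G52390 had 5.87 and 5.82 with clothianidin, 2.97 and 2.17 on imidacloprid arrays and 2.41 and 3.75 on salicylic acid arrays, against 2.40 and 2.58 in untreated leaves. It was higher with clothianidin than with imidacloprid by 3.28 (limma adjusted p = 0.166) and than with salicylic acid by 2.76 (limma adjusted p = 1), so neither difference passed. AT1G75900 had 7.56 and 9.12 with clothianidin, 3.38 and 2.21 on imidacloprid arrays and 6.52 and 7.04 on salicylic acid arrays, against 6.64 and 5.80 in untreated leaves. AT2G16890 had 5.65 and 3.80 with clothianidin and at most 2.79 on any other array, and AT1G45110 was higher with clothianidin than with imidacloprid by 1.29 (limma adjusted p = 0.0632). No probe set was below all others by 0.5. The nearest was TAAC, for a thylakoid ATP/ADP carrier, with 4.48 and 4.46 with clothianidin and 5.49 and 4.94 in untreated leaves.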

How the data were processed

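Log2 expression values per probe set were deposited by the authors for all 8 arrays, and the submitters' processing notes name RMA and affy as the tools. Versions, background step and order are not given in the sources used here. Each column was matched to its sample by its label, and 64 control probe sets were left out. The number of arrays limits the precision.

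Probe sets were named from the platform's probe table joined to the TAIR10.1 annotation: 13436 had a single locus (13286 loci), 503 several, 77 no match and 8730 no entry. For a locus with several probe sets, gene lists use the one of highest mean level. A list member counts as measured if it has a single-locus probe set. Other members may lie among the probe sets with no entry, so measured members can be a small part of a list.

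All 8 arrays were fitted with limma 3.58.1 in R 4.3.3 (lmFit, eBayes; 4 group means, 4 residual degrees of freedom, prior 0.766), two-sided, with Benjamini-Hochberg adjustment over all probe sets of a contrast and a threshold of 0.05. The fit was tested on simulated data. The members, 54 gene lists and families and the rule for named genes were chosen with earlier results of these data known, and 41 lists had a measured member; 9 families, among them CML, GH9 and PUB, were added after the files were seen. The rule took the 12 widest gaps in each direction, the 3 smallest p in each direction, and up to 4 members per list with a gap of at least 0.5, or else its 2 brightest, which are named here only where they inform the leaf, hormone, stress, glutathione and cold lists. Genes outside it were named after their values were seen. Replicate differences correlated between groups at -0.002 to 0.523, so the numbers were not taken to pair the arrays. Alternatives were other priors, array weights, centring, quantile normalization, a filter on dim probe sets, a replicate block, other gaps and leaving out each array. Plots used matplotlib 3.10.9 (Python 3.11.15).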

Additional observations from a re-analysis of the deposited data

How the results depend on the processing

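With 2 arrays a group and no call in limma's test of clothianidin against untreated leaves, the counts describe these arrays. That count stayed at 0 in every alternative fit, the replicate block included, except when an array was left out, where it ran from 0 to 72. The 72 came without untreated replicate 2 and were 3 higher and 69 lower, 2 of each among the probe sets with a gap of at least 1, and STZ was then called with a difference of 6.92. It was 1 without clothianidin replicate 1 and 2 without clothianidin replicate 2. At an unadjusted p under 0.05 the count ran from 493 to 1520 over the fits. Clothianidin minus imidacloprid had 22 calls. Under the alternatives chosen after seeing the data it had 0 with only the 4 arrays compared, 37 with an intensity trend and robust prior and 2 with the replicate block, and leaving out an array gave 1 to 279. Clothianidin minus salicylic acid had 0 to 19 when an array was left out.

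Probe sets without overlap numbered 2284 higher and 3384 lower, against 1846 and 4401 after centring on array medians. Requiring only both same-numbered pairs (replicate block) gave 4412 and 5555, and leaving out an array, which relaxes the condition by construction, gave 4581 to 6125 and 6940 to 11383. With a gap of at least 1 there were 305 higher and 63 lower. A gap of at least 0.5 gave 620 and 344, leaving out an array 400 to 1125 and 278 to 1067, number 1 alone 1651 and 1667, where the lean to the higher side is lost, and number 2 alone, with the higher actin 3′ minus 5′ differences, 1001 and 725. Of the differences of named genes, 888 of 902 settings kept direction and side of the threshold. None of the 24 widest gaps reversed, but leaving out an array cannot reverse groups that do not overlap. That outcome was fixed when these loci were chosen, and it also raises the 888, so neither count measures robustness. Reversals were in 7 overlapping genes, for which the cause was not tested: leaving out an array gave BCAT4 -0.60 to 0.09, COR47 -0.69 to 0.66, COR15A -3.24 to 0.61, PSAE-1 -0.31 to 0.09, RCA -0.10 to 0.24, PRK -0.40 to 0.10 and PYK10 -0.64 to 1.14, and RCA was -0.01 after centring. Of 328 settings of list medians, 71 moved by more than the spread between the numbers. The replicate numbers were not taken as pairs, and the untreated and clothianidin replicate differences correlated at 0.302.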
